A study of Mus musculus with 4 samples.

Results

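The cells described here came from the mouse mammary gland and carried a Cd3 transcript and a transcript of Cd163l1 or Trdv4. Cells with a Cd3 transcript are called T cells here by that mark alone. The rule takes these genes as marks of gamma-delta T17-like cells, a label that did not hold for cells with Trdv4 alone. Of 42781 CD45+ cells that passed the filters, 369 met the rule, 133 of 21604 in the library DR_MG_2021, called the first library here, and 236 of 21177 in DR_MG_2022, the second library. Cells passed with 500 or more unique molecular identifiers (UMIs, counts of captured RNA molecules), 300 or more genes and mitochondrial transcripts at 10% of UMIs or less. A cell met the rule with at least 1 UMI summed over Cd3e, Cd3d and Cd3g, the signalling chains of the T cell receptor, and at least 1 UMI of Cd163l1 or Trdv4. Cells with Cd8b1, a chain of the CD8 co-receptor, or with the B cell genes Cd79a or Ms4a1 were left out. Of the 369 cells, 220 had Cd163l1, with or without Trdv4, and 149 had Trdv4 alone. Both genes were present in 109. The cells were thus chosen by measured UMIs of Cd3e, Cd3d, Cd3g, Cd163l1, Trdv4, Cd8b1, Cd79a and Ms4a1. Any level printed for these genes is a description.

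Gamma-delta T cells carry a receptor built from a gamma and a delta chain in place of the alpha and beta chains of most T cells. A subset of them is set up early in life to make interleukin-17 and settles in skin, fat, uterus and other tissues, where it answers interleukin-23 and interleukin-1 quickly. Its identity rests on the transcription factors Maf and Sox13, among others, and on the kinase Blk. Cd163l1 encodes SCART1, a scavenger receptor of these cells, and Trdv4 is the variable segment of the delta chain known as Vδ1, which pairs with the Vγ6 chain (Trgv6). Trdc is the constant segment of the delta chain, and Il17re encodes a receptor subunit of the interleukin-17 family.

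The study pooled CD45+ (white blood) cells of the gland in 2 droplet libraries, each with hash tags, antibodies that carry a short DNA barcode and mark the sample a cell came from. The deposited sheets named the tags Nulliparous (animals that have not been pregnant), Gestation and Lactation in both libraries. For the second library they added Involution and Regression (the return of the gland toward rest after nursing), Balb/c (a mouse strain) and GF. The labels do not say how many animals stand behind a tag, how old they were, which strain the remaining samples had or at which stage the glands of Balb/c and GF were taken, so p-values measure the spread between hash-named samples. Tag HT2 was named Germ-free on the sheets. The title of the first library lists no such sample and does list Involution, for which the sheet of that library has no tag, so the cells of HT2 are given by tag and enter no main comparison. Tag HT4 had 1 count in the second library, which leaves no Nulliparous sample there. The tag barcodes are shown because every sample below rests on them, and the capitals mark the whole barcode.
HT2, Germ-free: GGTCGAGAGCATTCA
HT4, Nulliparous: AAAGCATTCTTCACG
HT5, Gestation: CTTTGTCTTTGTGAG
HT6, Lactation: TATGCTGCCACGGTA
HT8, Involution: TATAGAACGCCAGGC
HT9, Regression: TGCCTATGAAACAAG
HT10, Balb/c: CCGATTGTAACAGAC
HT12, GF: CTGCAAATATAACGG

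The first library held 56300251 UMIs, with a median of 1599 per cell, and the second library 90642638, with a median of 3049. The libraries shared 139 cell barcodes, 0.643% of the cells of the first and 0.656% of those of the second. A single tag was called in 234 of the 369 cells and several tags in 101, and 209 lay in the 9 named samples. The second-library Lactation sample stood apart, with a median of 6 tag counts per cell (5.5 in the 12 cells of the rule). The second-library Gestation sample also had weak tags, at 13 (10 in its 39 cells of the rule). The other named samples of that library lay at 22 to 65. Pooled over 7 cells with Trdv4 alone, the second-library Lactation sample held 3594 milk protein UMIs per 10000, against 4.37 to 9.56 in the other named samples. Pooled over 13 such cells, the first-library Gestation sample held 1217 B and plasma cell UMIs per 10000, against 3.17 to 13.8 in the other named samples. A few deep cells can set such pooled rates, and the spread over cells was not tested. For comparisons between classes that used the second-library Lactation and first-library Gestation samples, the number of called genes is given below with and without each. Fold changes, list counts and pooled shares are not given without them.

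Taken as a class, the cells with Cd163l1 carried the genes of the label, and those with Trdv4 alone did not. The label was weakest for second-library cells with 1 UMI of Cd163l1, described below. Among the 220 cells with Cd163l1, Trdc was detected in 75.5%, Blk in 59.5% and Il17re in 26.8%. Among the 149 cells with Trdv4 alone, Trdc was detected in 20.8%, Blk in 1.34% and Il17re in 1.34%, and Il23r, the receptor for interleukin-23, in 0 of 149 cells, which allows a share of up to 2.01%. Cells with Trdv4 alone are therefore called by that rule below, with no cell type name. T cells that met the same filters with neither gene, 12247 in all, serve as the reference and are called other T cells. Cd3d, Cd3e and Cd3g stood at 2.10, 1.86 and 4.21 UMIs per 10000 in the pooled cells with Trdv4 alone. They stood at 5.24, 4.67 and 7.09 in other T cells and at 5.76, 5.33 and 9.46 in cells with Cd163l1. Whether the cells with Trdv4 alone were T cells was not tested. The main loci, on GRCm38.p6 in RefSeq, were Cd163l1 on chromosome 7 from 140197218 to 140231145, Trdv4 on chromosome 14 from 54075004 to 54075515, and Trdc on chromosome 14 from 54142851 to 54146108.

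**Figure D1:**
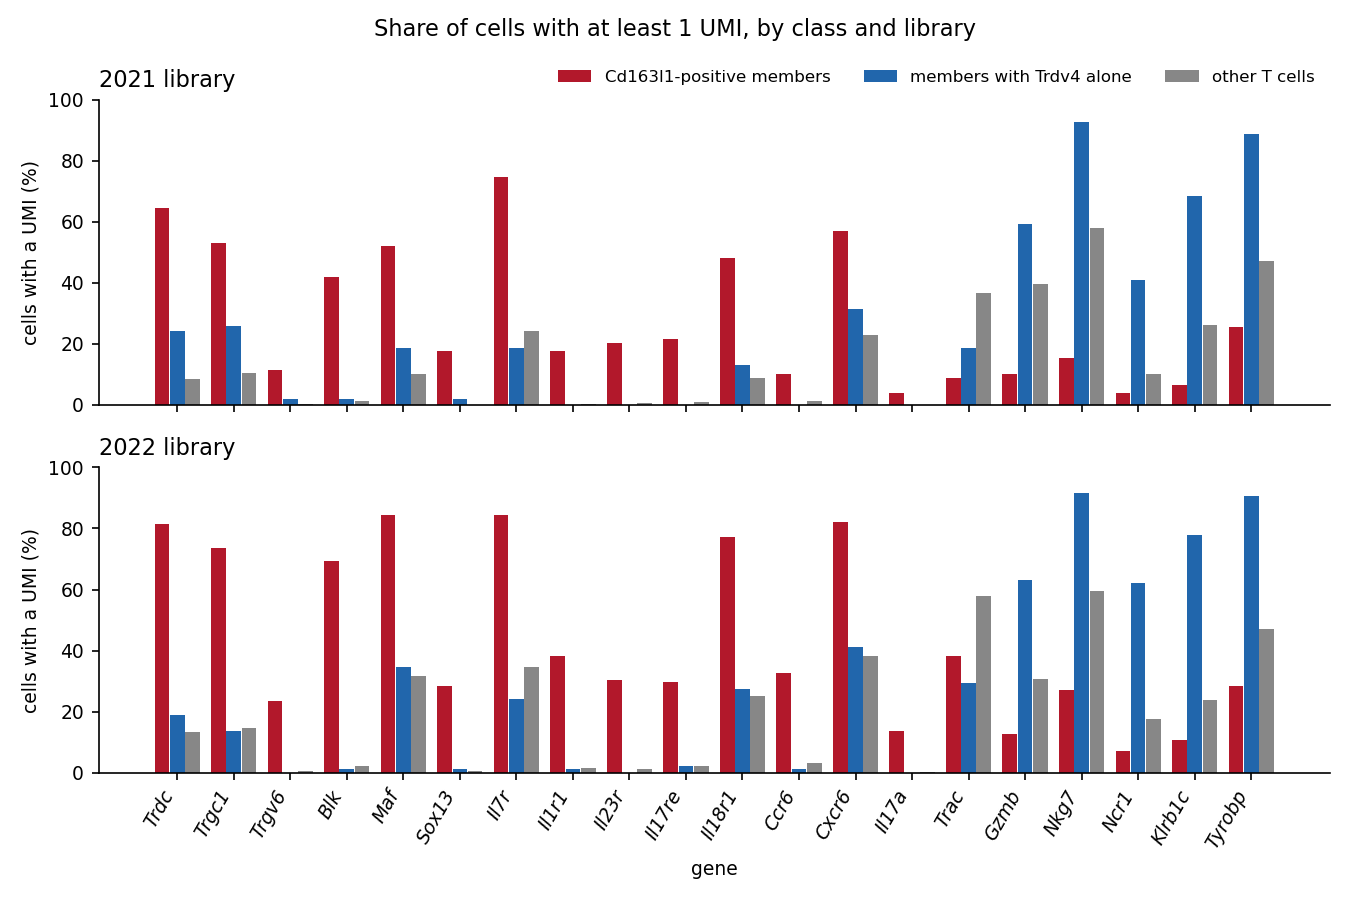
Share of cells with at least 1 UMI (y axis, percent) for 20 genes (x axis) in each library, for cells with Cd163l1 (red), with Trdv4 alone (blue) and other T cells (grey). Most genes of gamma-delta T17 cells, left, were detected most often in the red class in both libraries. Of these, Trgv6 (11.4% and 23.4% of the red class by library) and Il17a (3.80% and 13.5%) were sparse. To the right, after Trac of the alpha chain, cytotoxic genes were detected most often in the blue class.

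The number of UMIs of the rule's genes per cell separated the cells further. For each cell it was recorded which of 6 genes that the rule did not use (Il17re, Il23r, Il1r1, Sox13, Blk and Ccr6) were present. With 1 UMI of Cd163l1, 16 of 26 cells (61.5%) in the first library and 5 of 22 (22.7%) in the second library had at least 1 of the 6 genes. With 2 to 3 UMIs the counts were 25 of 31 (80.6%) and 17 of 20 (85.0%), and with 4 to 7 UMIs 15 of 21 (71.4%) and 50 of 52 (96.2%). At 8 or more UMIs, 46 of 47 cells (97.9%) of the second library had such a gene. With 1 UMI of Trdv4 alone the counts were 1 of 46 cells (2.17%) and 4 of 77 (5.19%), near the 2.97% and 6.23% of other T cells. With 2 or more UMIs of Trdv4 alone they were 0 of 8 and 0 of 18 cells. Just outside the rule, 11 cells of the first library and 41 of the second library had Cd163l1 and no Cd3 transcript, and 45.5% and 17.1% of these had at least 1 of the 6 genes. Another 10 and 46 cells had Cd163l1, Cd3 and Cd8b1, and 20.0% and 28.3% of these had at least 1. A further 9 and 34 cells had Cd163l1, Cd3 and a B cell gene, and 77.8% and 79.4% of these had at least 1.

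**Figure D2:**
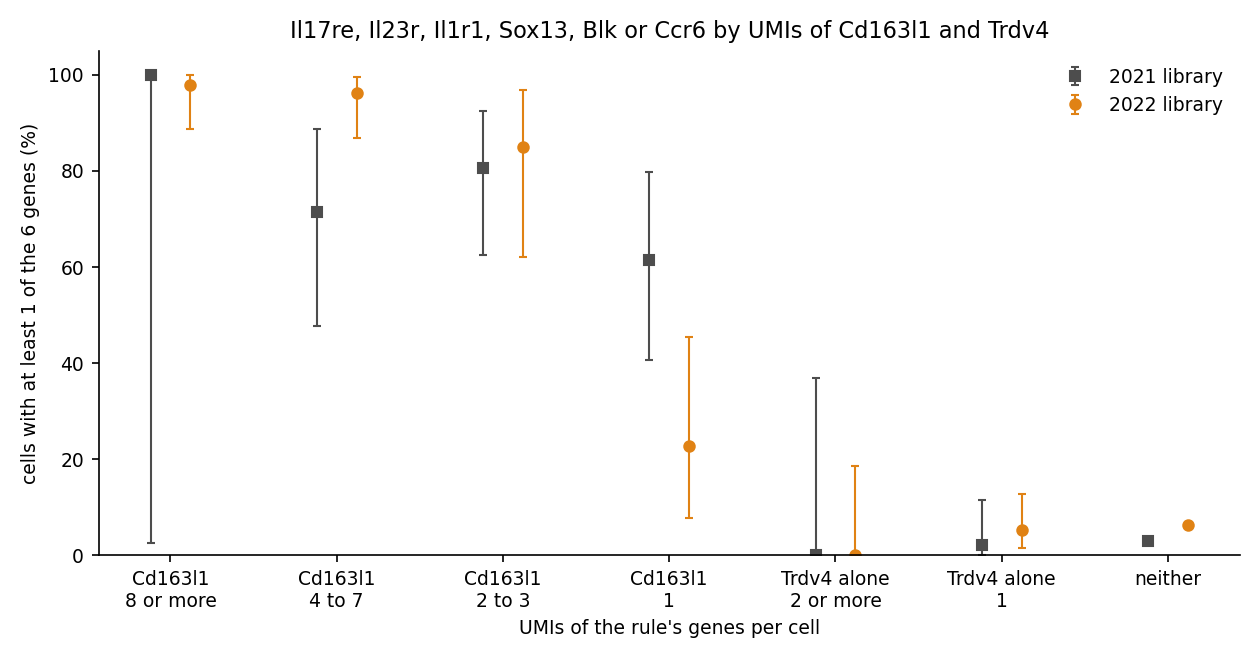
Share of cells (y axis, percent, exact 95% binomial intervals) with at least 1 UMI of Il17re, Il23r, Il1r1, Sox13, Blk or Ccr6, by UMIs of Cd163l1 or Trdv4 in the cell (x axis), in the first (squares) and second (circles) library. Cells with Trdv4 alone lie at 5.19% or below in both libraries, beside T cells with neither gene.

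Some T cells outside the rule had several of these genes. Of other T cells, 68 in the first library and 155 in the second library had at least 2 of the 6 genes. Trdc was seen in 4.41% and 12.9% of these, and Trac, the constant segment of the alpha chain, in 44.1% and 69.7%. These cells more often carried Trac than Trdc, unlike the cells with Cd163l1, of which 75.5% had Trdc and 27.7% had Trac.

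Cells with Cd163l1 made up the largest share of T cells in the samples named Involution and Regression. Among Cd3-positive cells, 28 in Involution made up 3.02% (exact binomial 95% interval 2.02 to 4.34), and in Regression 23 cells made up 2.84% (1.81 to 4.23). In the other samples of the second library the share was 1.18% in Gestation (26 cells, 0.773 to 1.73), 0.923% in Lactation (5 cells, 0.300 to 2.14), 0.684% in Balb/c (7 cells, 0.276 to 1.40) and 0.306% in GF (3 cells, 0.0632 to 0.892). In the first library it was 0.541% in Nulliparous (16 cells, 0.309 to 0.876), 0.481% in Gestation (8 cells, 0.208 to 0.946) and 1.63% in Lactation (19 cells, 0.983 to 2.53). The intervals of Involution and Regression lay above those of Gestation, Balb/c and GF in the same library, and overlapped that of Lactation. Most names have a single sample, and the intervals cover counting error only, so the order was not tested. This share also moves with the number of other T cells in a sample. Of all cells in the sample, those with Cd163l1 took 1.24% for Involution (0.825 to 1.79) and 0.927% for Regression (0.589 to 1.39). They took 0.760% in the second-library Gestation sample (0.497 to 1.11) and 0.746% in the first-library Lactation sample (0.450 to 1.16), so that these intervals overlapped. The intervals of Involution and Regression still lay above those of GF (0.0284 to 0.402), Nulliparous (0.155 to 0.441) and the first-library Gestation sample (0.0748 to 0.341). That of Balb/c (0.140 to 0.714) lay below Involution and overlapped Regression. That of the second-library Lactation sample (0.205 to 1.46) overlapped Involution and Regression.

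Gestation and Lactation each had a sample in both libraries. Gestation had 0.481% in the first library and 1.18% in the second, and Lactation 1.63% and 0.923%, so that the order of the stages differed, although the intervals of the libraries overlapped within each stage. Median depth differed as well, at 1599 and 3049 UMIs per cell. When every cell was thinned to 1000 UMIs and shallower cells were left out, the share of cells with Cd163l1 was 3.05% in Involution, 3.46% in Regression and 1.04% in the second-library Gestation sample. It was then 1.14% in Lactation, 0.594% in Gestation and 0.464% in Nulliparous of the first library. Involution and Regression were again the highest samples.

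The cells with Trdv4 alone followed another order. Their share of Cd3-positive cells was highest in the second-library Lactation sample (1.29%, 7 cells, 0.521 to 2.64) and GF (1.22%, 12 cells, 0.634 to 2.13), and lowest in Nulliparous (0.169%, 5 cells, 0.0549 to 0.394). The remaining named samples lay between 0.494% in Regression and 0.782% in the first-library Gestation sample. Among cells of the rule, those with Cd163l1 therefore made up 85.2% in Regression and 82.4% in Involution, and 20.0% in GF. Of the 135 cells with Cd163l1 in named samples, 51 (37.8%) came from Involution or Regression, against 10 of the 74 cells with Trdv4 alone (13.5%). On tag HT2, 10 cells with Cd163l1 and 9 with Trdv4 alone were found in the first library, and 1 and 5 in the second library. The cells with Cd163l1 on this tag made up 1.09% of Cd3-positive cells in the first library (0.525 to 2.00) and 0.213% in the second (0.00540 to 1.18). The values given for Involution are those of the second library alone, and which name applies to HT2 of the first library was not settled by the labels.

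**Figure D3:**
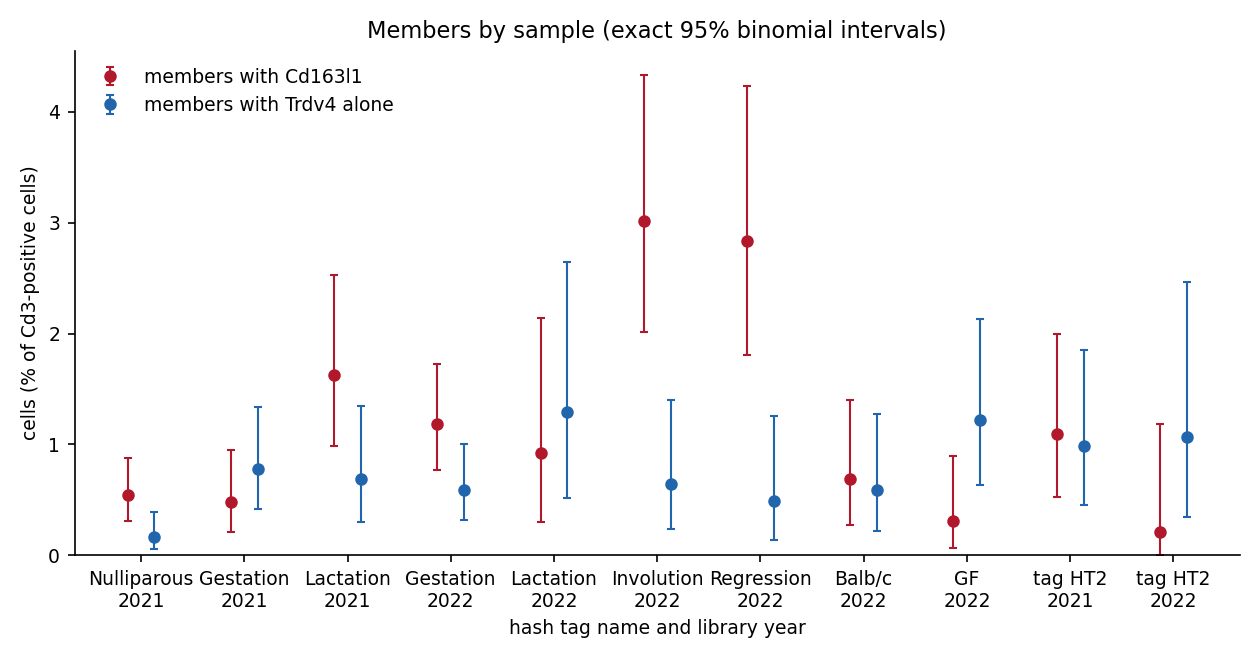
Cells with Cd163l1 (red) and with Trdv4 alone (blue) as a percentage of Cd3-positive cells (y axis) in each hash-named sample (x axis), with exact 95% binomial intervals. Cells with Cd163l1 reach 3.02% in Involution and 2.84% in Regression, and cells with Trdv4 alone stay at 1.29% or below in the named samples.

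The cells with Cd163l1 carried segments of the gamma and delta chains, and also transcripts of the beta and alpha chains. Trdc gave 717 UMIs in 166 of the 220 cells, and Trgc1, a constant segment of the gamma chain, 428 UMIs in 146 cells (66.4%). The rule's own Trdv4 was present in 109 cells (49.5%). Trgv6 was detected in 42 cells (19.1%), against 34 of 12247 other T cells (0.278%) and 1 cell with Trdv4 alone. Trgv2 was seen in more cells, 31.4% of them and 14.5% of other T cells, and did not pass the test against other T cells described below (log2 fold change 0.76, SE 0.277, edgeR adjusted p 0.0692). Trgv1 was found in 5.45%, Trgv4 in 3.64% and Trgv7 in 1.36% of the cells with Cd163l1. Of the constant segments of the beta chain, Trbc2 was detected in 72.3% of them, against 71.3% of other T cells, and Trbc1 in 98 of 220 cells (44.5%) against 5147 of 12247. In the same edgeR test both were lower relative to all UMIs, with log2 fold changes of -0.78 for Trbc2 (SE 0.203, adjusted p 0.00312) and -0.92 for Trbc1 (SE 0.243, adjusted p 0.00381), with overlapping groups. Trac was detected in 27.7%, in 7 of 79 cells of the first library (8.86%) and 54 of 141 of the second library (38.3%). A capture at the 3′ end sees variable segments poorly, and similar gamma segments can share reads, so the segment counts are lower bounds on use and their split is uncertain.

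These segments varied between samples. In Involution, 18 of the 28 cells with Cd163l1 also had Trdv4 and 12 had Trgv6. In Regression, 14 of 23 had Trdv4 and 6 had Trgv6. In the second-library Gestation sample, at a similar depth, 7 of 26 had Trdv4 and 1 had Trgv6, while 17 had Trdc and 17 had Trgc1. In Balb/c, 1 of 7 had Trdv4 and 0 had Trgv6. Median UMIs of the cells with Cd163l1 were 3366 in Involution, 3180 in Regression, 3021.5 in the second-library Gestation sample and 2446 in Balb/c. With 1 sample per name in a library these differences were not tested.

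Against other T cells, the genes of gamma-delta T17 identity were higher as a group in the cells with Cd163l1. UMI sums of 8 hash-named samples with at least 5 such cells were compared by edgeR's quasi-likelihood test with the sample as a block and Benjamini-Hochberg adjustment over 6718 genes. The 8 genes of the rule were left out. Of 33 tested genes of the identity list, 26 were higher and 0 lower, with a median log2 fold change of 1.77. Over all genes tested, 2.46% were called higher and 5.63% lower (165 and 378 genes), and the median was -0.21. The groups did not overlap for 1.04% of the genes tested. DESeq2 called 142 genes higher and 131 lower, 26 of the 33 identity genes among the higher ones, and its scaling moved the median of all genes by 0.11. Without the Involution sample edgeR called 353 genes in all, without the second-library Lactation sample 578 and without the first-library Gestation sample 533. The list holds genes known from earlier work on such cells and was chosen with results of these data known.

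Trdc, Trgc1 and the kinase Blk were among the genes that rose. Trdc stood at 3.91, 7.38 and 13.3 UMIs per 10000 in the lowest, median and highest of the 8 samples, against 0.555, 0.806 and 2.20 in other T cells. The groups did not overlap, and the log2 fold change was 2.89 (SE 0.236, edgeR adjusted p 1.99e-31). Blk, a Src-family kinase that these cells need, stood at 0, 3.53 and 7.25 per 10000 against 0.00896, 0.0725 and 0.226. The groups overlapped only through the second-library Lactation sample, which had 5 cells and no Blk UMI. The log2 fold change of Blk was 5.01 (SE 0.287, edgeR adjusted p 1.27e-64). Trgc1 rose by 2.62 (SE 0.245) on the same scale.

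Zbtb16, Rora and Maf, transcription factors of the programme, rose too. Maf stood at 2.23, 7.23 and 12.1 UMIs per 10000 in the lowest, median and highest of the 8 samples against 0.421, 1.98 and 4.29 in other T cells, and was higher in 7 of 8 samples with overlapping groups (log2 fold change 1.73, SE 0.230, edgeR adjusted p 1.15e-11). Zbtb16, which encodes PLZF of innate-like T cells, rose by 2.68 (SE 0.344) and Rora by 1.77 (SE 0.257). Batf and Ahr were tested and not called, with log2 fold changes of -0.03 and -0.03. Sox13 was too sparse for the test. It was detected in 24.5% of the cells with Cd163l1, 1.34% of those with Trdv4 alone and 0.327% of other T cells.

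Cytokine receptors divided in both directions. Il1r1, the receptor for interleukin-1, stood at 1.05, 1.43 and 3.07 UMIs per 10000 against 0, 0.0223 and 0.176 in other T cells, with no overlap between the groups (log2 fold change 4.69, SE 0.341, edgeR adjusted p 8.36e-40). Il17re stood at 0, 1.07 and 1.68 per 10000 against 0.0179, 0.0650 and 0.194 and was higher in 7 of 8 samples (3.56, SE 0.349). The other receptor chain tested, Il17ra, was not called (0.42, edgeR adjusted p 0.491). Of 22 tested cytokine and costimulatory receptors, 5 were higher (Il1r1, Il18r1, Tnfrsf25, Il12rb1 and Il7r) and 9 lower, among them Il2rb, Cd28, Cd27 and Ctla4. Il7r, the receptor for the survival factor interleukin-7, rose by 1.77 (SE 0.209), and Tnfrsf9, a receptor induced by activation, fell by 4.47 (SE 0.854). The Il23r transcript was not abundant enough for the test and was detected in 26.8% of cells with Cd163l1 and 0.800% of other T cells.

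Products of the cells were sparse. Il17a was detected in 22 of the 220 cells with Cd163l1 (10.0%, 71 UMIs), in 0 of the 149 with Trdv4 alone and in 15 of 12247 other T cells (0.122%, 81 UMIs). It was seen in 3 of 79 cells in the first library (3 UMIs) and 19 of 141 in the second library (68 UMIs). Involution and Regression had 4 such cells each, with 15 and 12 UMIs, and the second-library Gestation sample had 1 cell with 3 UMIs. Il17f was found in 4 cells with Cd163l1 and Il22 in 1. Of 6 tested effector products, Tnf, an inflammatory cytokine, was higher (1.19, SE 0.282, edgeR adjusted p 0.000732) and Ifng lower (-3.76, SE 0.714, adjusted p 7.95e-06). Ifng gave 2 UMIs in the cells with Cd163l1 of the 8 samples. Ltb, which encodes lymphotoxin beta, was not called (0.08, adjusted p 0.903).

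Homing genes, cytotoxic genes and alpha-beta genes completed the profile. Of 22 tested residency and homing genes, Cxcr6, Gpr183 and Itgb7 were higher and 5 were lower, among them Ccr7, Itga4 and Cxcr3. Cxcr6, a chemokine receptor of tissue lymphocytes, stood at 4.47, 6.20 and 11.9 UMIs per 10000 against 1.35, 1.82 and 3.89 and did not overlap (1.38, SE 0.221, edgeR adjusted p 4.17e-08). Ccr6, a receptor of T17 cells, rose by 2.46 (SE 0.356) and Ccr2 by 1.29 (SE 0.238). Of 17 tested genes of cytotoxic lymphocytes, 16 were lower by edgeR and 12 by DESeq2, with a list median of -2.16 in edgeR. Of 16 tested alpha-beta genes, 13 were lower by edgeR, with Cd4, Cd28 and Lef1 among them, and 7 by DESeq2. Cd8a gave 0 UMIs in the cells with Cd163l1 of the 8 samples, at least 15.3 times lower than in other T cells when 3 counts are taken as the floor over the group. The rule asked for no Cd8b1 in both classes.

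In the cells with Cd163l1, 0 of 16 cell cycle genes were called against other T cells (list median 0.29), and the UMIs of these genes lay unevenly over samples. Cell cycle genes gave 67.8 UMIs per 10000 in Involution, 78.1 in Regression and 38.3 in the second-library Gestation sample, against 5.59 to 14.1 in the other named samples. Mki67, a marker of dividing cells, gave 96 UMIs in 6 of the 28 Involution cells and 53 in 5 of the 23 Regression cells. It gave 0 in Nulliparous, the first-library Gestation sample, the second-library Lactation sample, Balb/c and GF. Of 10 tested genes of lipid uptake and metabolism, 0 were higher and 4 lower (Fabp4, Cd36, Apoe and Lpl). Of 15 tested myeloid genes 10 were lower, and all 3 tested B and plasma cell genes were lower.

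The comparison with cells that had Trdv4 alone was made within 7 samples with at least 5 cells of each class, a minimum lowered from 10 after the cell counts were seen, since 10 left 1 sample. Only 331 genes were abundant enough to be tested by edgeR, of which 3.93% were higher in the cells with Cd163l1 and 4.53% lower (13 and 15 genes). All 6 tested cytotoxic genes, of 20 in the list, were lower. Of 6 tested identity genes, from a list of 37, 5 were higher by edgeR, the sixth being Selplg at 0.10. DESeq2 called all 6 cytotoxic genes lower and 4 of the 6 identity genes higher. Ccr2 did not pass by DESeq2 (0.79, adjusted p 0.248) or by edgeR with no sample block (0.98, adjusted p 0.287). The abundance filter can keep a gene through the class in which it is high. These directions therefore describe the tested genes and not the whole lists. The list medians were -3.19 and 1.83, against -0.03 over all genes tested. Both classes are also compared with the same other T cells in this section, so these comparisons share samples.

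Trdc separated the classes in every sample. It stood at 3.91, 7.17 and 12.4 UMIs per 10000 in the lowest, median and highest of the 7 samples for cells with Cd163l1, and at 0, 0.271 and 2.98 for cells with Trdv4 alone. The groups did not overlap, and the log2 fold change was 3.46 (SE 0.636, edgeR adjusted p 0.00496). Cxcr6 stood at 4.47, 6.13 and 11.9 against 0, 1.06 and 3.19, again with no overlap (2.29, SE 0.381, adjusted p 0.00272). Thy1, a surface protein of T cells, was higher by 1.69 (SE 0.317) and S100a4, a calcium-binding protein, by 1.92 (SE 0.436). Il17re, Il23r, Il1r1 and Il17a gave 0 UMIs in the cells with Trdv4 alone of all 9 named samples. They were too sparse in this comparison for the test.

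Cytotoxic genes ran the other way. Gzmb, which encodes the protease granzyme B, stood at 0, 0.0902 and 5.76 UMIs per 10000 in the cells with Cd163l1 and at 4.06, 6.88 and 38.3 in those with Trdv4 alone, and was lower in 7 of 7 samples (-4.48, SE 0.530, edgeR adjusted p 0.000830). The groups overlapped only through the first-library Lactation sample. Gzma, another granzyme, was lower by the largest amount (-5.71, SE 0.753, adjusted p 0.00121), and 226 of its 240 UMIs in the cells with Cd163l1 came from 4 cells of that same sample. With no sample block Gzma did not pass the threshold (-3.30, adjusted p 0.0635). Nkg7, a protein of cytotoxic granules, stood at 0, 2.05 and 5.03 against 5.61, 13.8 and 22.5, with no overlap (-2.94, SE 0.439). Ccl5, Il2rb and Cd7 also fell in 7 of 7 samples with no overlap. Over all 331 genes tested, the groups did not overlap for 13 (3.93%). The first library alone gave 4 called genes, and there Trdc (1.90, adjusted p 0.314) and Gzmb (-3.05, adjusted p 0.0673) kept their direction without passing the threshold. Without the second-library Lactation sample the count was 37, and without the first-library Gestation sample it was 29.

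**Figure D4:**
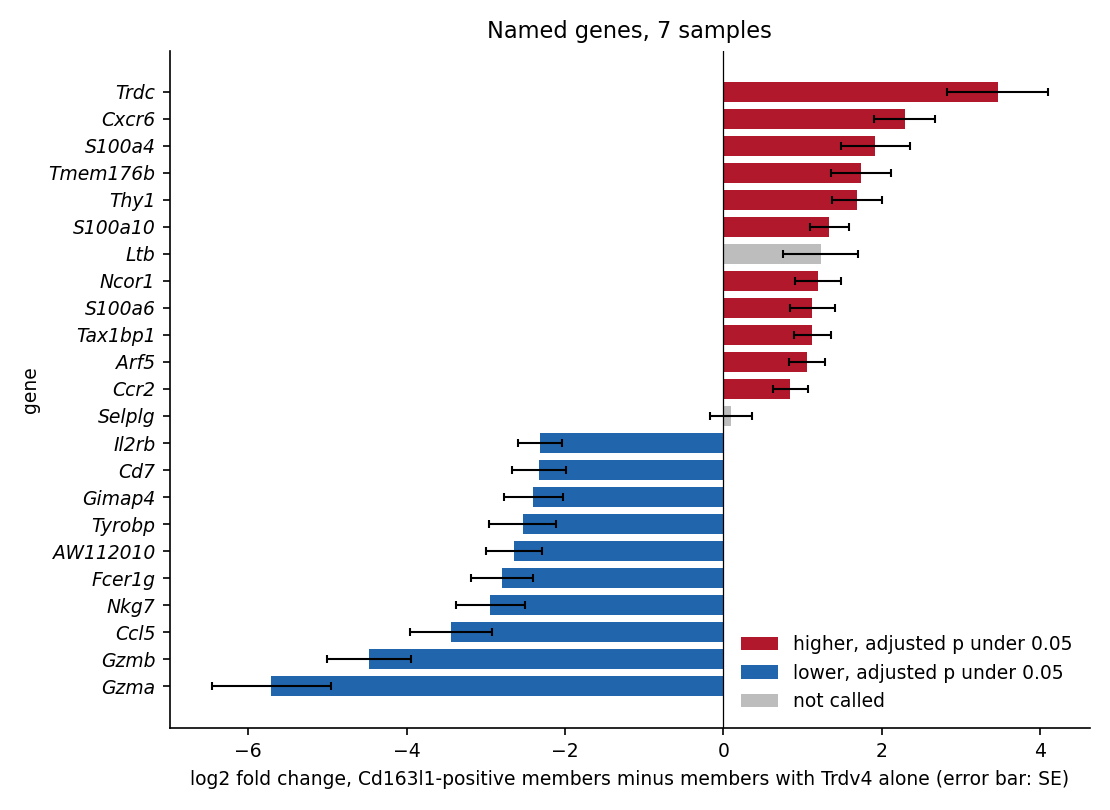
Log2 fold change (x axis) of 23 genes (y axis) between cells with Cd163l1 and cells with Trdv4 alone over 7 samples, with standard errors. Trdc is highest at 3.46 and Gzma lowest at -5.71, and grey bars, Ltb and Selplg, did not pass an adjusted p of 0.05.

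Cells with Trdv4 alone carried genes of cytotoxic lymphocytes. Nkg7 was detected in 91.9% of them, Klrb1c, the NK1.1 receptor, in 74.5%, Gzmb in 61.7% and Ncr1, the NK cell receptor NKp46, in 54.4%. In other T cells the same genes were found in 58.6%, 25.2%, 35.3% and 13.6%. These are shares of pooled cells, and in the test by sample given below Nkg7 and Gzmb were not called. The cells with Trdv4 alone were deeper, at medians of 2403.5 and 5437 UMIs by library against 1602.5 and 3066 in other T cells. Thinned to 1000 UMIs, Nkg7 was still detected in 71.7% and 69.2% of them, against 48.5% and 41.7% of other T cells and 13.2% and 13.1% of cells with Cd163l1. Thinned Gzmb was detected in 52.8% and 33.0%, against 36.8% and 20.7% of other T cells and 6.58% and 4.38% of cells with Cd163l1. Several tags were called in 34.2% of the cells with Trdv4 alone, 22.7% of those with Cd163l1 and 16.7% of other T cells, and Scrublet, a doublet caller, marked 10.1%, 3.64% and 6.26%. With the Scrublet calls removed, 24 genes were called by edgeR between the classes, against 28, and the part of any remaining doublets was not tested.

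Tested against other T cells over 8 samples with at least 5 cells, cells with Trdv4 alone had 31 genes higher and 97 lower of 6643 by edgeR (0.467% and 1.46%). DESeq2 called 20 higher and 35 lower, with the median of all genes moved by 0.12. Without the second-library Lactation sample there were 180 called genes, and without the first-library Gestation sample there were 97. Ncr1 stood at 1.06, 2.08 and 8.50 UMIs per 10000 against 0.397, 0.728 and 2.64 and was higher in 8 of 8 samples, with overlapping groups (1.59, SE 0.256, adjusted p 2.24e-07). Klrb1c was higher in 8 of 8 samples by 1.17 (SE 0.220). Of 18 tested cytotoxic genes, 5 were higher by edgeR (Klrb1c, Klre1, Ncr1, Prf1 and Gzma), 0 lower and 13 not called, and DESeq2 called 4 higher. The list median was 0.50 in edgeR against -0.19 over all genes. Over all cells of the first and second library, cytotoxic genes gave 255 and 150 UMIs per 10000 in cells with Trdv4 alone. They gave 207 and 102 in other T cells, and 322 and 188 in those other T cells that had Trdc. The cytotoxic genes were thus not particular to cells with Trdv4 alone.

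Of 22 tested identity genes, 0 were higher and 5 were lower by edgeR (Icos, Cd69, Maf, Cxcr6 and Il7r), and 3 were lower by DESeq2. Trdc was not called (-0.99, SE 0.360, edgeR adjusted p 0.163). Of 16 tested alpha-beta genes 14 were lower by edgeR and 9 by DESeq2. Among the 14 were Cd5, a negative regulator of T cell receptor signals (-5.04, SE 0.786), and Lef1, a factor of naive T cells (-3.15, SE 0.568). Epcam, an epithelial adhesion gene, was higher in 6 of 8 samples, and Csn1s2b, a casein, in 3 of 8 samples, and both passed the threshold. Epithelial keratins lay in few of these cells, with 434 Krt8 UMIs in 4 of the 149 and 472 Krt18 UMIs in 3. The part of epithelial RNA in the comparison was not tested. With no sample block the number of called genes was 22, against 128 with it.

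Trdv4 was also common outside T cells. In cells with Ncr1 and no Cd3 transcript, the markers of natural killer cells, Trdv4 was detected in 5.79% in the first library (101 of 1745 cells) and 10.2% in the second library (173 of 1694). In B cells it was detected in 0.123% and 0.269%, and in Csf1r-positive (macrophage lineage) cells in 0.561% and 0.389%. Cd163l1 was detected in 0.0573% and 0.354% of the Ncr1-positive cells without Cd3, close to its 0.0309% and 0.366% in B cells. Median depths were 1555 and 3160 UMIs in the Ncr1-positive cells, 1182 and 2116 in B cells and 2126 and 4487 in Csf1r-positive cells. Of all cells with a Trdv4 UMI, 234 of 338 in the first library (69.2%) and 267 of 506 in the second library (52.8%) had no Cd3 transcript, against 10.1% and 16.1% of cells with Cd163l1. Thinned to 1000 UMIs, Trdv4 was in 3.36% and 3.38% of the Ncr1-positive cells without Cd3 and in 0.762% and 0.842% of T cells.

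Within T cells that lacked Cd163l1, Trdv4 also went with Ncr1. It was detected in 3.29% of those with Ncr1 in the first library and 0.553% of those without, and in 5.44% and 0.741% in the second library. The cells with Ncr1 were deeper, at 2406 and 3953.5 UMIs against 1534 and 2923. After thinning the shares were 1.18% and 0.465% in the first library and 0.952% and 0.360% in the second, with overlapping exact intervals in both libraries, and the thinned cells with Ncr1 and Trdv4 numbered 3 in each. Trdc was found in 5.79% and 16.5% of the Ncr1-positive cells without Cd3, against 0.463% and 1.44% of B cells.

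**Figure D5:**
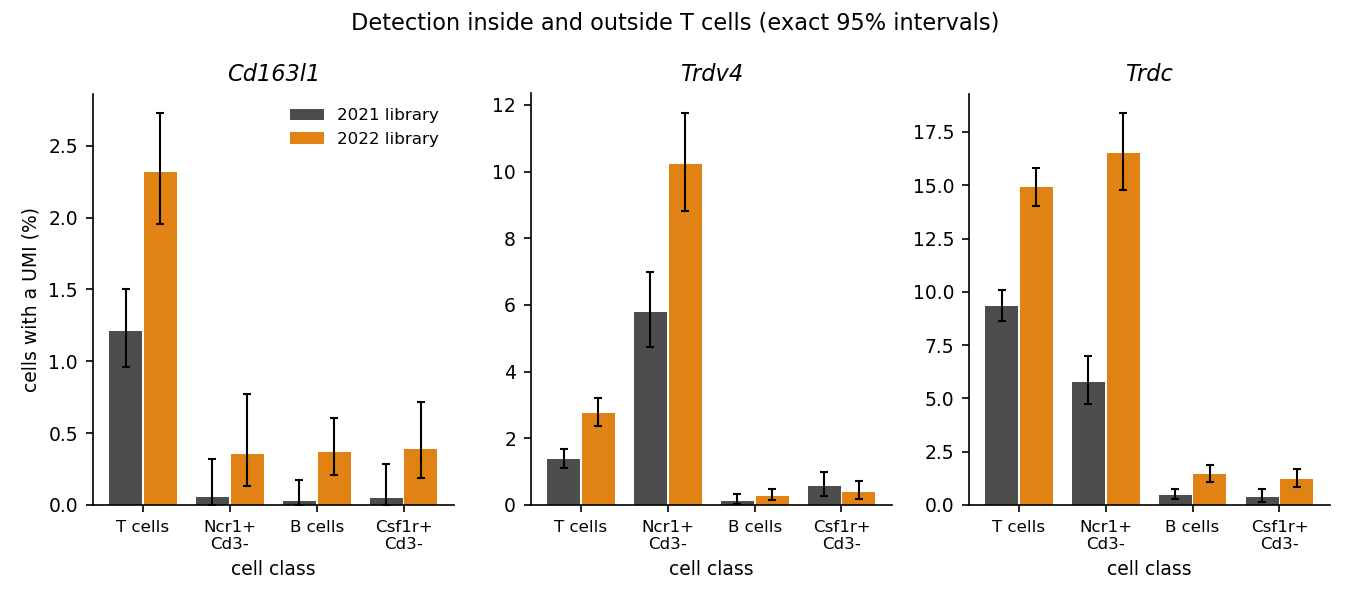
Share of cells with a UMI (y axis, percent, exact 95% intervals) of Cd163l1, Trdv4 and Trdc in T cells open to the rule, Ncr1-positive cells without Cd3, B cells and Csf1r-positive cells (x axis), in the first (grey) and second (orange) library. Cd163l1 is highest in T cells, and Trdv4 is highest in Ncr1-positive cells, at 5.79% and 10.2%.

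All cells of the rule had 90 genes higher and 183 lower than other T cells by edgeR over 9 samples with at least 10 cells (1.27% and 2.57% of 7112), and 103 higher and 88 lower by DESeq2. Of 34 tested identity genes 24 were higher and 0 lower. The groups did not overlap for 0.141% of all genes tested. Il1r1 was higher in 9 of 9 samples, at 0.178, 0.697 and 1.39 UMIs per 10000 against 0, 0.0238 and 0.176, with no overlap (4.01, SE 0.389, adjusted p 2.26e-07). Il17re was higher in 8 of 9 samples (2.81, SE 0.396, adjusted p 6.81e-05) and Trdc in 9 of 9 (2.15, SE 0.276, adjusted p 2.02e-05), both with overlapping groups. Of 18 cytotoxic genes, Ncr1 was higher and Ccl5 and Ctsw were lower. Stricter rules left 5 of the 9 samples with at least 10 cells (Nulliparous and Lactation of the first library, and Gestation, Involution and Regression of the second). On these 5 samples edgeR called 563 genes when Trdv4 was dropped from the rule, 515 when at least 2 UMIs were asked for and 565 when Trdc was asked for too, against 313 with the full rule on the same samples. With the full rule the number of called genes was 377 without the second-library Lactation sample, 213 without the first-library Gestation sample, 140 without Involution, 157 without Regression and 157 with no sample block.

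T cells with Trdc and neither Cd163l1 nor Trdv4 were compared with the cells of the rule that had Trdc. They numbered 1320, against 197 cells of the rule with Trdc. In 5 samples with at least 10 cells of each, edgeR called 91 genes higher in the cells of the rule and 83 lower (4.64% and 4.23% of 1960), and DESeq2 58 and 79. Of 23 tested identity genes 19 were higher and 0 lower, with a list median of 2.77 against -0.01 over all genes. Here too the abundance filter can keep a gene through the class in which it is high. Of 13 tested cytotoxic genes 6 were lower by edgeR, 12 were lower by DESeq2, and 0 were higher. Without Involution the calls fell to 61, and without the second-library Gestation sample to 89.

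Blk stood at 2.59, 4.33 and 6.52 UMIs per 10000 in the lowest, median and highest of these 5 samples, against 0, 0.0401 and 0.485 in the other Trdc-positive T cells. The groups did not overlap (5.01, SE 0.434, edgeR adjusted p 0.000174), which was so for 5.87% of all genes tested. Maf stood at 5.77, 8.80 and 12.9 against 0.170, 0.574 and 2.36, also without overlap (3.31, SE 0.381, adjusted p 0.000604). Rora rose by 3.22 (SE 0.306) and Cxcr6 by 1.86 (SE 0.234), each in 5 of 5 samples. Klrd1, a chain of NK cell receptors, was lower in 5 of 5 samples, at 0, 0.919 and 1.44 UMIs per 10000 against 3.54, 4.89 and 6.16 with no overlap (edgeR adjusted p 0.00254), and Klrb1c fell by 2.46 (SE 0.551). Of 4 tested receptor segments Trgc1 was higher (1.40, SE 0.309), and Trgc2, Trgv2 and Trgc4 were not called.

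Lactation and Gestation are the stages with a sample in both libraries. Within all cells of the rule, 0 of 1258 genes (0%) were called between them by edgeR with the library as a block and 0 by DESeq2. At an unadjusted p under 0.05 there were 42 and 7. The 4 samples held 12 to 39 cells each, and the 12 cells of the second-library Lactation sample carried 3030 milk protein UMIs per 10000, against 5.54 in the first-library Lactation sample and 7.92 and 6.32 in the Gestation samples. The median of 17 tested identity genes was -0.43, against -0.04 over all genes. A change between these stages was not detectable with these cells. With no block and without the first-library Lactation sample, which leaves 1 Lactation sample assumed to vary like Gestation, 77 genes were called.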

How the data were processed

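The authors deposited raw counts of UMIs for genes and of hash tags for each cell barcode. The libraries used the 10x Genomics 3′ chemistry, per the labels' protocols. The submitters' processing notes name Cell Ranger 6.1.0 and the build mm10, and, per the file headers, Cell Ranger 4 made the gene matrix of DR_MG_2021. Of 55487 gene entries per library, 55253 were matched by symbol, and 234 with no single match were left out.

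HTODemux of Seurat 5.3.0 in R 4.3.3 assigned cells to samples (quantile 0.99), and cells with 1 positive tag entered the comparisons between samples and classes. Doublet calls (Scrublet in scanpy 1.11.5, Python 3.11.15) were removed only in an alternative. Raw counts were summed per hash-named sample and class and tested with edgeR 4.0.16 (quasi-likelihood, TMM, filterByExpr, Benjamini-Hochberg threshold 0.05), with the sample as a block because both classes come from the same sample. DESeq2 1.42.0 was an alternative. Rates are UMIs per 10000 UMIs of the class. Intervals and the 3-count floor cover counting error only.

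The members, the gene lists and the division of the members by Cd163l1 were chosen with earlier results of these data known, and the comparisons of each kind with other T cells were added after the cell counts were seen. Names were drawn from the tested genes of the identity, effector, interleukin-17 receptor and segment lists. They were also drawn from the 10 largest called changes in each direction that kept 1 sign in every sample. Not all of these genes are printed. The other names were chosen after their values were seen. On simulated counts for the members against other T cells (6917 genes), 64% and 44% of genes changed by 1 and -1 on the log2 scale were recovered, 100% and 96% of those changed by 2 and -2, and 0.0447% of unchanged genes were called. All simulated sums shared the same base profile and a fixed spread, with no differences between samples and no outlier cells. These rates therefore need not hold for the real sums. Some genes are not reported here and were left out of the gene lists.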

Additional observations from a re-analysis of the deposited data

Results flagged for a closer look

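Trdv4 was detected in Ncr1-positive cells without Cd3, which the rule cannot take, at 5.79% of cells in the first library and 10.2% in the second library, against 0.123% and 0.269% of B cells. The cells on tag HT2, whose name is disputed, held members as well, at 2.07% of Cd3-positive cells in the first library (19 cells) and 1.28% in the second (6 cells). The named samples of the same library ranged from 0.709% to 2.31% in the first library and from 1.27% to 3.67% in the second.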

How the results depend on the processing

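Counts of called genes moved with the settings. For the members against other T cells (273 genes) they were 597 with no filter on low counts, 157 with no replicate block, 140 to 377 with 1 sample left out, 115 and 110 in the first and second library alone, and, on the 5 of 9 samples that stricter rules left, 515 with at least 2 UMIs, 563 with Cd163l1 alone in the rule and 565 with Trdc in members, against 313 with the full rule on these 5 samples, a fit chosen after seeing the data. Against other Trdc-positive T cells (174) they were 444 with no filter, 28 and 264 in each library alone and 61 to 210 with 1 sample left out. For cells with Cd163l1 against Trdv4 alone (28) they were 177 with no filter, 4 in the first library alone and 19 to 37 with 1 sample left out. For cells with Cd163l1 against other T cells (543) they were 273 with DESeq2, 892 with no filter, 108 in the first library alone and 353 to 578 with 1 sample left out, the lowest without Involution, and Trgc4 reversed to -0.043 in the first library alone. For Trdv4 alone against other T cells (128) they were 55 with DESeq2, 323 with no filter, 22 with no replicate block, 28 and 83 in each library alone, 200 with tag HT2 added, 48 at a minimum of 10 cells and 87 to 180 with 1 sample left out. Lactation against Gestation (0) gave 81 with no filter and 0 to 77 with 1 sample left out and no replicate block, the highest without first-library Lactation. Asking for 2 UMIs moved the member share to 0.439% in Nulliparous, 0.421% and 1.0% in first- and second-library Gestation, 1.46% and 0.554% in first- and second-library Lactation, and 0.408% in GF. Thinning moved it to 1.21% in Gestation, 0.664% in Lactation, 0.616% in Balb/c and 0.381% in GF of the second library, and moved the share with Cd163l1 in second-library Lactation to 0.221%. The cause of these moves was not tested.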
